A study of Mus musculus with 12 samples.

Results

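Sfrp1, Sfrp2, Wif1, Dkk1 and Dkk3, which encode secreted Wnt antagonists, and Axin2, Lgr6, Lef1 and Tcf7, which are commonly read as indicators of Wnt pathway activity, were followed across the 12 RNA-seq libraries of a Snail1 knockdown experiment. These 9 genes, 5 antagonists and 4 readouts, were taken by gene name from a table of 57180 genes and were selected on earlier results of these data, which included the differences between knockdown and control at both times. Those differences are therefore given for the 9 genes as values, and no result is read from a test of them. Changes over time were tested, as were other genes of the pathway, whose lists were also chosen with earlier results of these data known. The tests over time use libraries that also entered those differences. For the selected genes, their p-values are therefore not independent of the selection.

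The cells were HC11, a mouse mammary epithelial cell line, sorted by flow cytometry and left overnight in medium with EGF and insulin to form aggregates before an in vitro collective migration assay. Snail1 knockdown (KD) aggregates and control aggregates, whose titles carry the tag scr, were each collected at 36 h and at 0 h of the assay, 3 libraries a group. The groups were Snail1 KD at 36 h, control at 36 h, Snail1 KD at 0 h and control at 0 h. All came from the same line. The labels do not say how the knockdown was made, although the authors' mean columns for the knockdown groups carry the tag sh. The labels also do not say whether each library is a culture of its own, or what "mix" means in the title of control 36 h library 4. The authors' own mean for control at 36 h leaves that library out. The p-values therefore measure the spread between these libraries, and if that library is a pool, n = 3 is overstated in its group.

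Secreted Wnt proteins bind Frizzled receptors and LRP co-receptors at the cell surface, which stabilises beta-catenin and lets it act with TCF/LEF factors on target genes. Antagonists work outside the cell: SFRP proteins and WIF1 bind Wnt proteins themselves, whereas DKK1 and sclerostin-family proteins bind the LRP co-receptors. In the mammary gland, Wnt signalling is known for its roles in placode formation, ductal branching and the maintenance of basal progenitor cells.

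Of the 5 antagonists, Sfrp1 and Wif1 reached 1 TPM, a transcript level scaled to gene length and library total, in at least 3 libraries, and of the 4 readouts, Lgr6 and Tcf7 did. Each of these 4 genes was above 1 TPM in all 12 libraries. Sfrp2, Dkk1, Dkk3, Axin2 and Lef1 stayed below 1 TPM in every library and were not tested. Over the whole table, 14426 genes passed this filter.

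Promoter windows from RefSeq (build GRCm38.p6, 250 bases before to 50 bases after a transcription start site) were found for 7 of the 9 genes, with 11 windows in all. None was found for Sfrp1 or Dkk3, so the search covers no promoter of Sfrp1. The windows of the 3 detected genes among those matched are shown because the levels of these genes are compared below between libraries with and without Snail1 knockdown, and Snail1 is known to bind E-boxes of the kind searched. The motifs searched on both strands were CAGGTG, which reads CACCTG on the other strand, and the TCF/LEF core CTTTGA, which reads TCAAAG on the other strand. Capitals mark a match, and each sequence is given 5′ to 3′ on the strand of its gene. The Wif1 window is chr10:121033754-121034053 (plus strand), the Lgr6 window is chr1:135105227-135105526 (minus strand), and the Tcf7 windows are chr11:52282546-52282845 and chr11:52282965-52283264 (both minus strand).
Wif1: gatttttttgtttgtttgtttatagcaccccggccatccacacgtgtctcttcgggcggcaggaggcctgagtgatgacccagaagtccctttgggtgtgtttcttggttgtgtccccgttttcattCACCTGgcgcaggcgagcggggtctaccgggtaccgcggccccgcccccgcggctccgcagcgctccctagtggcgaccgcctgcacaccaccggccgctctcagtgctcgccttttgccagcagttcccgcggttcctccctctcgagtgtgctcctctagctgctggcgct
Lgr6: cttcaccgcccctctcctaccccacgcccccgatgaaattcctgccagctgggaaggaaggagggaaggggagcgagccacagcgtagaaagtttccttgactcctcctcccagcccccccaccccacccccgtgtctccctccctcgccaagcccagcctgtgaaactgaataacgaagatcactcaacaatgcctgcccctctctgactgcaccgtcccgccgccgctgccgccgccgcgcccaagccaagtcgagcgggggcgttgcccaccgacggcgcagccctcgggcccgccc
Tcf7, first window: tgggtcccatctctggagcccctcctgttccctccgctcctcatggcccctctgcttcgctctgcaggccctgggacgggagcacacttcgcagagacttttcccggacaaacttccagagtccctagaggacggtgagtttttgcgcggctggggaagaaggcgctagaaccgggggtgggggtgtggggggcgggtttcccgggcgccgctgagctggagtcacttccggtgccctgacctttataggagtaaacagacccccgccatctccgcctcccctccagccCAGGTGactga
Tcf7, second window: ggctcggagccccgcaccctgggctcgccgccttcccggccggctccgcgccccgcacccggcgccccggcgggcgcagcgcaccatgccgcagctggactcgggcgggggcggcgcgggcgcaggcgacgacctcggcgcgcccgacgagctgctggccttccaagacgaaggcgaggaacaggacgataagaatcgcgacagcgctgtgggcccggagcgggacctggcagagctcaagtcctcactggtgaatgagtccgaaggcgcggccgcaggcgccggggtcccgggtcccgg
The Wif1 window held 1 E-box of this kind, 123 bases upstream of the start site. The first Tcf7 window held 1, beginning 39 bases downstream of the start site, and neither the second Tcf7 window nor the Lgr6 window held a match to either motif. Among all 32851 windows of this length, 20.2% held the E-box letters and 16.0% held the TCF/LEF core. A match describes letters in this window and does not show that a factor binds there.

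Snai1, the gene targeted by the knockdown, had 0.58, 0.44 and 0.20 TPM in Snail1 KD libraries at 36 h, against 2.77, 2.69 and 3.92 TPM in control libraries at 36 h. At 0 h it had 0.58, 0.79 and 0.48 TPM in Snail1 KD libraries, against 1.34, 2.51 and 1.69 TPM in control libraries. Mean Snai1 was 13.0% of control at 36 h and 33.4% at 0 h, and as deposited every KD library was below every control library of the same time. Sequencing depth is unknown, because TPM does not keep it. Snail1 KD 0 h library 2 stood apart: mitochondrial genes held 13.99% of its TPM, against 1.45% to 6.15% in the other 11 libraries, and its median correlation with its own group was 0.861, against 0.894 to 0.969 for the others. Median-of-ratios scaling, which sets the typical gene level in each library, gave it a factor of 0.507, against 0.902 to 1.22 elsewhere. The log2 fold change of Snai1, KD over control, was −1.55 at 36 h and −0.80 at 0 h as deposited. After scaling it was −1.45 at 36 h and −0.51 at 0 h. At 0 h Snai1 passed the limma test as deposited (adjusted p = 0.0348), but not after scaling (adjusted p = 0.191). It also did not pass at 0 h in 5 of 12 fits that left out 1 library. Snail1 KD 0 h library 3 had 27715 genes above 0, against 20932 to 23427 in the others. Keratins of both mammary lineages were detected, whereas the luminal gene Krt19 and the myoepithelial genes Acta2, Cnn1 and Mylk were below 1 TPM in every library. In bulk RNA, fewer cells of a type and less RNA per cell cannot be told apart.

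Sfrp1 (ENSMUSG00000031548), which encodes secreted frizzled-related protein 1, a Wnt-binding antagonist with a domain like that of the Frizzled receptors, was the most abundant of the 5 antagonists in control cells. It had 7.45, 9.97 and 7.47 TPM in Snail1 KD libraries at 36 h, against 74.38, 53.52 and 62.65 TPM in control libraries at 36 h. At 0 h it had 11.49, 4.98 and 12.88 TPM in Snail1 KD libraries, against 96.21, 89.22 and 104.11 TPM in control libraries. Every KD library lay far below every control library at either time. The group means were 8.30 ± 1.45 TPM in KD at 36 h, 63.5 ± 10.5 in control at 36 h, 9.78 ± 4.22 in KD at 0 h and 96.5 ± 7.45 in control at 0 h (SD, n = 3 each). The KD mean was thus 13.1% of control at 36 h and 10.1% at 0 h, and the log2 fold change of KD over control, on the log2(TPM + 1) scale used throughout, was −2.79 (SE 0.299) at 36 h and −3.27 (SE 0.299) at 0 h. After median-of-ratios scaling it was −2.68 at 36 h and −2.79 at 0 h. Over the 12 libraries, mean Sfrp1 was higher than that of 74.4% of the genes tested.

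Wif1 (ENSMUSG00000020218), which encodes Wnt inhibitory factor 1, another secreted Wnt-binding protein, had opposite orders of the constructs at the 2 times. It had 10.31, 19.61 and 13.11 TPM in Snail1 KD libraries at 36 h, against 7.74, 8.88 and 8.08 TPM in control libraries at 36 h. At 0 h it had 2.53, 2.58 and 4.03 TPM in Snail1 KD libraries, against 9.81, 7.06 and 8.63 TPM in control libraries. The lowest KD library at 36 h exceeded the highest control library at 36 h, and the highest KD library at 0 h was below the lowest control library at 0 h. Means were 14.3 ± 4.77 TPM in KD and 8.23 ± 0.585 TPM in control at 36 h, and 3.05 ± 0.852 TPM in KD and 8.50 ± 1.38 TPM in control at 0 h (SD, n = 3 each). The KD mean was 174% of control at 36 h and 35.8% at 0 h, with log2 fold changes of 0.69 at 36 h and −1.24 at 0 h (SE 0.254 each), or 0.78 at 36 h and −0.82 at 0 h after scaling.

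Sfrp2, Dkk1 and Dkk3 contributed almost nothing to the summed transcripts of the 5 antagonists. Sfrp2 (ENSMUSG00000027996), a relative of Sfrp1, was listed at 0 in 6 of 12 libraries and reached at most 0.14 TPM, in Snail1 KD 0 h library 2. Dkk1 (ENSMUSG00000024868), whose product blocks LRP co-receptors, was listed at 0 in 11 of 12 libraries, with 0.07 TPM in Snail1 KD 0 h library 3. Dkk3 (ENSMUSG00000030772), a divergent member of the Dickkopf family, had 0, 0 and 0.04 TPM in KD libraries at 36 h, against 0.11, 0.15 and 0.23 TPM in control libraries at 36 h. At 0 h Dkk3 had 0.12, 0 and 0.07 TPM in KD libraries, against 0.03, 0.57 and 0.09 TPM in control libraries, and the groups overlapped. Levels this low cannot be compared without the depth behind them.

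Because TPM is scaled by transcript length, the 5 antagonists can be added within a library. The sum was 22.7 TPM on average in KD and 71.9 TPM in control at 36 h, and 13.0 TPM in KD and 105 TPM in control at 0 h. Wif1 made up 58.0%, 66.1% and 63.5% of it in the KD libraries at 36 h, against 9.41%, 14.2% and 11.4% in the control libraries at 36 h. At 0 h it made up 17.9%, 33.5% and 23.6% in KD libraries, against 9.25%, 7.29% and 7.65% in control libraries. Of the sum of these 5 genes, Wif1 was therefore the larger part in each KD library at 36 h, and Sfrp1 in each of the other 9 libraries. The sum leaves out other secreted inhibitors given below. Among those, Sostdc1 averaged 244 TPM in KD and 319 TPM in control at 36 h, and 45.9 TPM in KD and 101 TPM in control at 0 h.

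**Figure D1:**
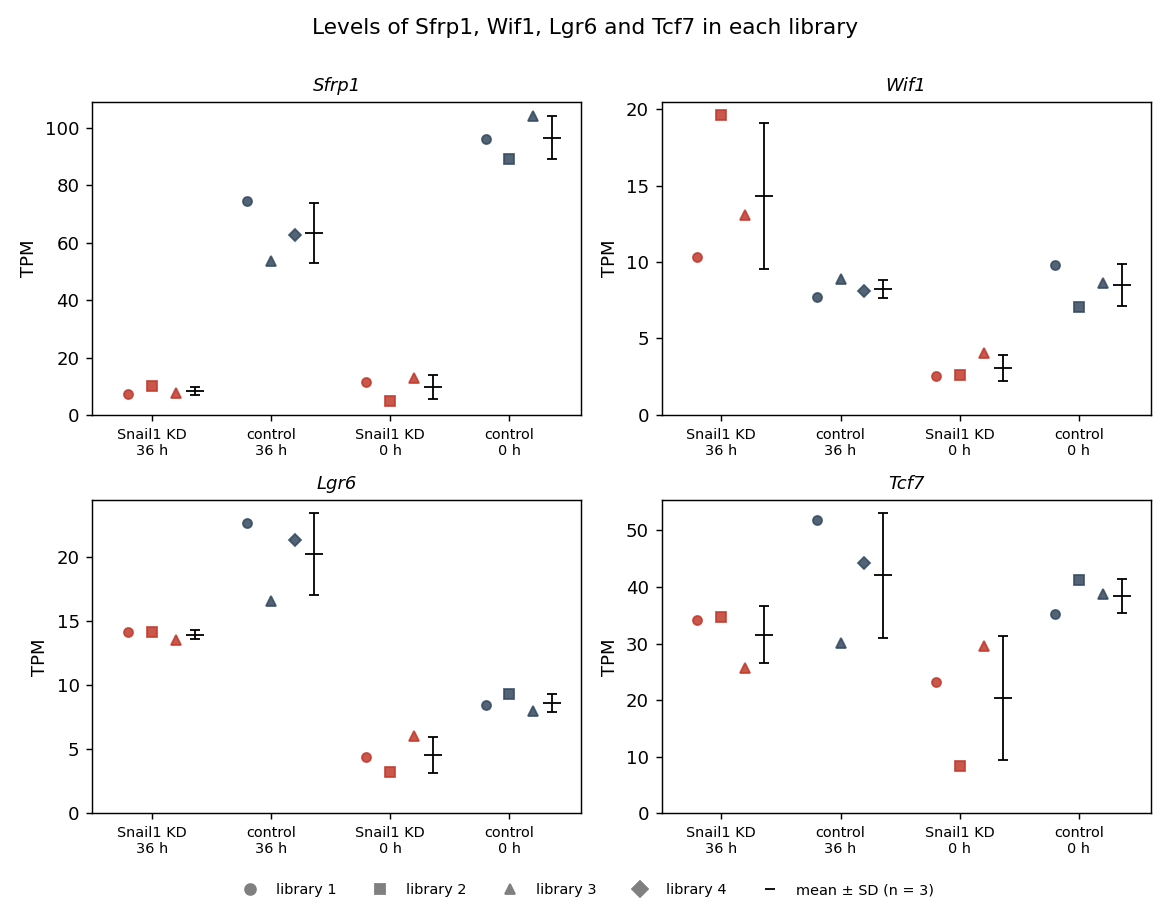
Level in TPM (y axis, starting at 0, own scale per gene) of Sfrp1, Wif1, Lgr6 and Tcf7 in each library of the 4 groups (x axis), with bars for mean ± SD (n = 3 libraries). Sfrp1 is at 4.98 to 12.88 TPM in the 6 Snail1 KD libraries and at 53.52 to 104.11 TPM in the 6 control libraries, whereas Wif1 in KD libraries lies above control at 36 h and below control at 0 h.

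Lgr6 (ENSMUSG00000042793), which encodes an R-spondin receptor that enhances Wnt signalling and marks epithelial progenitors, had a range of its own in each of the 4 groups. It had 14.14, 14.19 and 13.54 TPM in Snail1 KD libraries at 36 h, against 22.69, 16.60 and 21.36 TPM in control libraries at 36 h. At 0 h it had 4.40, 3.21 and 6.01 TPM in Snail1 KD libraries, against 8.49, 9.35 and 7.99 TPM in control libraries. No 2 groups overlapped, in the order KD at 0 h, control at 0 h, KD at 36 h and control at 36 h. Mean Lgr6 in KD was 69.0% of control at 36 h and 52.7% at 0 h, with log2 fold changes of −0.49 at 36 h and −0.82 at 0 h (SE 0.221 each), and of −0.39 at both times after scaling.

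Tcf7 (ENSMUSG00000000782), which encodes a transcription factor that partners beta-catenin, had 34.14, 34.77 and 25.72 TPM in Snail1 KD libraries at 36 h, against 51.83, 30.14 and 44.26 TPM in control libraries at 36 h. At 0 h it had 23.24, 8.30 and 29.59 TPM in Snail1 KD libraries, against 35.26, 41.28 and 38.80 TPM in control libraries. The constructs overlapped at 36 h and did not overlap at 0 h. The lowest value was that of the library with the high mitochondrial share, Snail1 KD 0 h library 2. After median-of-ratios scaling, that library had 16.4, and the other KD libraries at 0 h had 25.8 and 28.0, against 31.0, 37.0 and 34.5 in control libraries at 0 h. Mean Tcf7 as deposited in KD was 75.0% of control at 36 h and 53.0% at 0 h, with log2 fold changes of −0.38 at 36 h and −1.05 at 0 h (SE 0.384 each), which were −0.28 and −0.56 after scaling.

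The remaining readouts were close to undetected. Axin2 (ENSMUSG00000000142), a negative regulator of the pathway and a widely used target of beta-catenin, had 0, 0 and 0.12 TPM in Snail1 KD libraries at 36 h, against 0.03, 0 and 0 TPM in control libraries at 36 h. At 0 h Axin2 had 0, 0.18 and 0.17 TPM in KD libraries, against 0.03, 0.03 and 0.07 TPM in control libraries. The highest Axin2 values were those of the KD 0 h libraries that stood apart by mitochondrial share and by number of genes above 0, and whether those features set these values was not tested. Lef1 (ENSMUSG00000027985), another TCF/LEF factor, was at 0 in 4 libraries and reached at most 0.22 TPM, in Snail1 KD 0 h library 3. The antagonists could therefore be set against Lgr6 and Tcf7 alone among the 4 readouts.

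**Figure D2:**
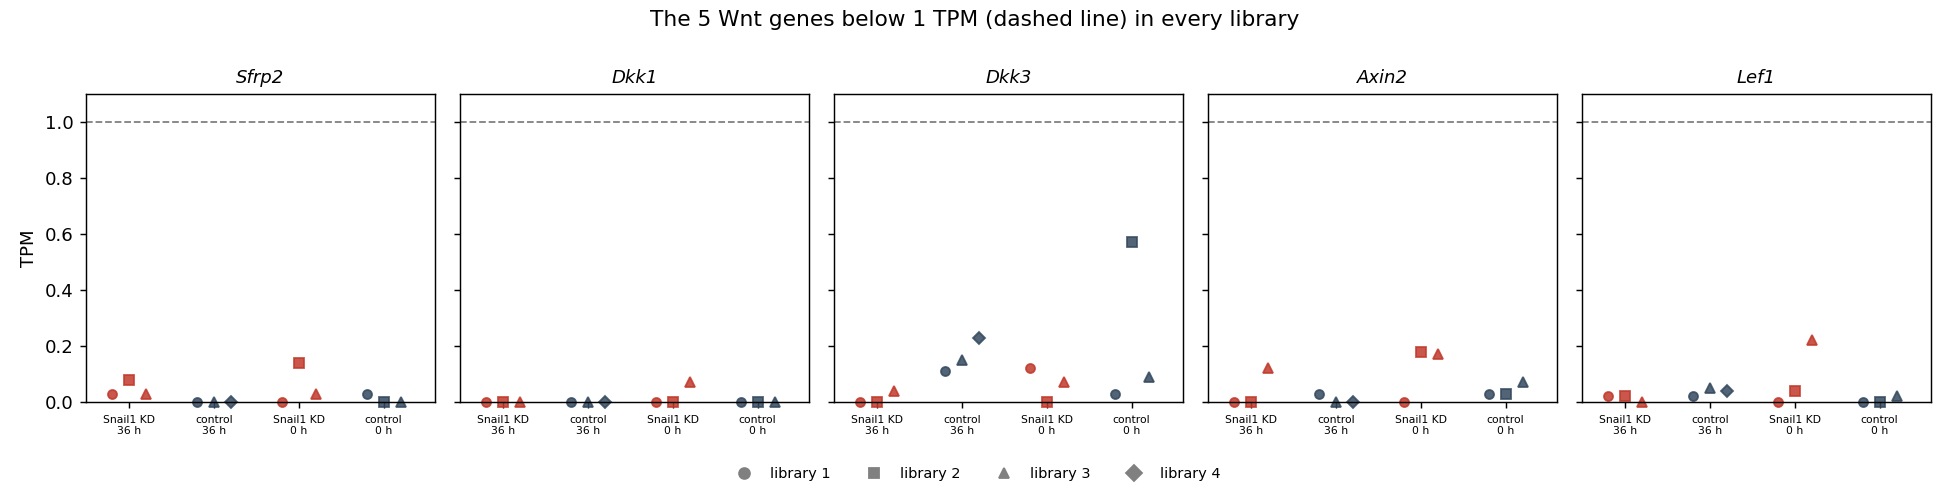
Level in TPM (y axis, the same for all panels) of Sfrp2, Dkk1, Dkk3, Axin2 and Lef1 in each library of the 4 groups (x axis), with 1 TPM as a dashed line. No point reaches the line, and the highest is Dkk3 at 0.57 TPM in control 0 h library 2.

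Across all genes, the limma fit called 3.1% of the 14426 genes higher and 14.6% lower in KD than in control at 0 h, and 0.894% higher and 1.64% lower at 36 h (adjusted p under 0.05, Benjamini-Hochberg). In the same fit 3 of the 4 detected genes, Sfrp1, Wif1 and Lgr6, were among those lower at 0 h, and Sfrp1 was among those lower at 36 h. Lgr6 was no longer among them at 0 h after scaling, or without any 1 of the 3 control 0 h libraries. Wif1 was no longer among them at 0 h without control 0 h library 1. Nothing is read from these counts, since the genes were chosen by these differences. The median log2 fold change of all genes was −0.41 at 0 h and −0.09 at 36 h, so a typical gene also lay below control at 0 h. Median-of-ratios scaling brought the medians to 0.02 and 0.01, and moved the share of calls that were higher at 0 h to 46.0%, against 17.5% as deposited.

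The changes from 0 h to 36 h were then compared within each construct. In Snail1 KD cells 0.998% of all genes rose and 0.125% fell, and 2 of the 4 detected genes, Wif1 and Lgr6, rose. In control cells 0.25% of all genes rose and 0.111% fell, and none of the 4 detected genes passed the test in limma, although Lgr6 had an unadjusted p under 0.05. The share of calls that were higher was 88.9% in KD and 69.2% in control as deposited, and 73.3% in KD and 56.8% in control after scaling. The median change of all genes was 0.33 in KD and −0.01 in control on the log2 scale as deposited, and the changes below are read against these medians.

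Wif1 rose in Snail1 KD cells to a mean of 14.3 TPM at 36 h, against 3.05 TPM at 0 h, a ratio of 4.71. The log2 change was 1.90 (SE 0.254, 95% interval 1.34 to 2.45, limma adjusted p = 0.00452), and all 3 libraries at 36 h were above all 3 at 0 h. The KD libraries at both times also entered the differences that chose Wif1, so this p-value is not independent of that choice. After scaling the log2 change was 1.58. It stayed past the threshold when any 1 library was left out, with the largest adjusted p at 0.0269, but not in a fit of the 6 KD libraries alone (adjusted p = 0.220). In control cells the means were 8.23 TPM at 36 h and 8.50 TPM at 0 h, and the log2 change was −0.03 (95% interval −0.59 to 0.52, limma adjusted p = 1).

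Lgr6 rose in Snail1 KD cells to 14.0 ± 0.362 TPM at 36 h, against 4.54 ± 1.41 TPM at 0 h (SD, n = 3 each). The log2 change was 1.46 (SE 0.221, 95% interval 0.98 to 1.95, limma adjusted p = 0.00890). The same limit applies to this p-value, since Lgr6 was chosen in the same way. After scaling the log2 change was 1.13 in KD and 1.13 in control. The call was lost without Snail1 KD 36 h library 1 (adjusted p = 0.0587) or library 2 (adjusted p = 0.0571), and in a fit of the 6 KD libraries alone (adjusted p = 0.313). In control cells Lgr6 averaged 20.2 ± 3.20 TPM at 36 h and 8.61 ± 0.688 TPM at 0 h (SD, n = 3 each), without overlap. The log2 change in control was 1.13 (SE 0.221) with a limma adjusted p of 0.0665. That p was 0.00595 after scaling, 0.00398 without Snail1 KD 0 h library 2, 0.0283 without Snail1 KD 0 h library 3 and 0.0278 in a fit of the 6 control libraries alone. In the other 13 of 17 alternative settings the change in control was not called, with a limma adjusted p of up to 0.823.

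Neither Sfrp1 nor Tcf7 passed the test over time in either construct. Sfrp1 had a log2 change of −0.13 in KD (95% interval −0.79 to 0.52, limma adjusted p = 0.779) and −0.61 in control (95% interval −1.26 to 0.05, limma adjusted p = 0.997). In control cells the 3 libraries at 36 h were nonetheless all below the 3 at 0 h, with a mean of 65.8% of that at 0 h. After scaling the log2 change of Sfrp1 was −0.49 in KD (limma adjusted p = 0.138) and −0.60 in control (limma adjusted p = 0.132). The change in control was not called in any of 17 alternative settings, where the lowest limma adjusted p was 0.0661. On scaled values the KD libraries at 36 h (7.25, 9.17 and 7.48) were also all below those at 0 h (12.7, 9.83 and 12.2). Tcf7 had a log2 change of 0.76 in KD (95% interval −0.08 to 1.60, limma adjusted p = 0.323) and 0.10 in control (limma adjusted p = 1).

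The difference between the constructs in these changes was tested for every gene. The limma test called 0% of the genes higher and 0% lower, that is 0 of 14426 genes, with 766 genes (5.31%) at an unadjusted p under 0.05. For the 9 genes this difference is a description, since it is the KD minus control value at 36 h less that at 0 h, and those values chose the genes. It was 1.93 for Wif1 (SE 0.359), 0.33 for Lgr6, 0.47 for Sfrp1 and 0.67 for Tcf7 on the log2 scale, beside a median of 0.34 for all genes. After scaling it was 1.60 for Wif1, −0.00216 for Lgr6, 0.11 for Sfrp1 and 0.28 for Tcf7.

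**Figure D3:**
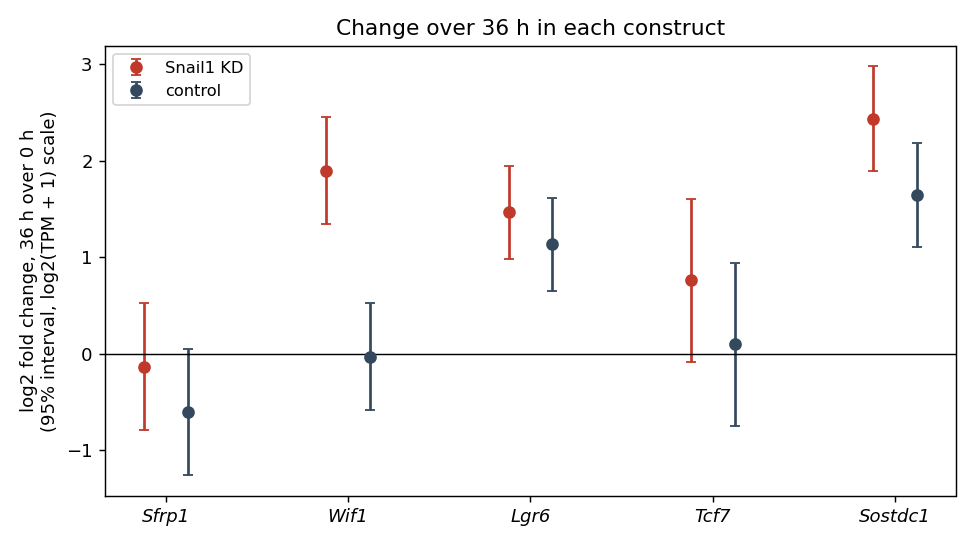
Log2 change from 0 h to 36 h on the log2(TPM + 1) scale (y axis) for Sfrp1, Wif1, Lgr6, Tcf7 and Sostdc1 (x axis) in Snail1 KD and control cells, as limma estimates with 95% intervals. Wif1 changed by 1.90 in KD and −0.03 in control, whereas Lgr6 and Sostdc1 lie above 0 in both constructs.

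Markers of other cell types were in part detected. Ptprc, Cdh5, Lum and Adipoq, defining genes of immune cells, endothelium, fibroblasts and adipocytes, were at or near 0, with maxima of 0.17, 0.02, 0.05 and 0 TPM. Other members of the same lists passed the filter, among them Cd68, Lyz2, Pecam1, Pdgfra, Col1a1 and Fabp4. Cd68 averaged 2.25 TPM in KD and 3.28 TPM in control at 36 h, and 8.16 TPM in KD and 12.9 TPM in control at 0 h. Pdgfra reached 11.08 TPM, Col1a1 10.27 TPM, Pecam1 6.98 TPM, Lyz2 2.53 TPM and Fabp4 13.84 TPM in their highest libraries. The summed 7 fibroblast markers were 7.97 to 13.83 TPM in KD and 13.27 to 24.42 TPM in control at 36 h, and 4.78 to 16.01 TPM in KD and 15.42 to 17.93 TPM in control at 0 h. The 7 immune markers summed to 3.9 to 4.27 TPM in KD and 3.72 to 4.6 TPM in control at 36 h, and to 6.64 to 13.08 TPM in KD and 10.66 to 16.11 TPM in control at 0 h. The 4 endothelial markers summed to 4.36 to 6.82 TPM in KD and 3.6 to 7.07 TPM in control at 36 h, and to 0.49 to 3.9 TPM in KD and 2.97 to 3.86 TPM in control at 0 h. The 4 adipocyte markers summed to 5.32 to 8.91 TPM in KD and 3.95 to 7.82 TPM in control at 36 h, and to 8.29 to 15.21 TPM in KD and 7.57 to 8.64 TPM in control at 0 h. Of the 6 basal mammary markers, Krt5, Krt14 and Trp63 were detected, and each was higher at 36 h than at 0 h without overlap in both constructs, as Lgr6 was. The sum of the 6, most of it Krt14, was 18671 to 24498 TPM in KD and 14896 to 17544 TPM in control at 36 h, and 2993 to 8896 TPM in KD and 8424 to 8635 TPM in control at 0 h. The 6 luminal markers summed to 871 to 1038 TPM in KD and 1081 to 1341 TPM in control at 36 h, and to 354 to 1445 TPM in KD and 1690 to 1792 TPM in control at 0 h. Their part in the changes of Wif1 and Lgr6 was not tested.

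Antagonists and readouts were related within each construct, over 6 libraries. Of the 8 pairs of Sfrp1 or Wif1 with Lgr6 or Tcf7, 6 were not computed because the values of at least 1 gene of the pair fell into separate clusters by time. In KD libraries Sfrp1 and Tcf7 had Pearson's r = 0.68 (exact permutation p = 0.136, adjusted over the 2 pairs 0.168) and Spearman's rho = 0.26 (exact permutation p = 0.658, adjusted 0.658). Without the 2 libraries farthest from the median of Sfrp1, Snail1 KD 0 h libraries 2 and 3, r was −0.34, so the positive value rested on them. After scaling, Sfrp1 in KD libraries also fell into separate clusters by time, so on that scale this pair would not have been computed. In control libraries Wif1 and Tcf7 had r = −0.63 (exact permutation p = 0.168, adjusted 0.168) and rho = −0.77 (exact permutation p = 0.103, adjusted 0.206), and without control 0 h libraries 1 and 2 r was −0.96. No relation passed the threshold (two-sided tests).

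Other genes of the pathway were examined as 8 lists with 95 genes, of which 55 passed the filter. The lists were chosen with earlier results of these data known. Their p-values and shares called are therefore not independent of those results. At 0 h 16 of the 55 were lower and 1 was higher in Snail1 KD than in control by the limma test, or 29.1% lower beside 14.6% of all genes. Their median log2 fold change was −0.71, beside −0.41 for all genes. After scaling 10 were lower (18.2%) and 1 was higher, beside 10.2% lower and 8.66% higher among all genes, and the medians were −0.24 for the lists and 0.02 for all genes. The count was 4, 6 and 5 in place of 17 without control 0 h libraries 1, 2 and 3. Among all genes, the same fits called 755, 1011 and 934 in place of 2550. Without Snail1 KD 0 h library 3 the count was 33, and 5869 among all genes. In a fit of the 6 libraries at 0 h alone the count was 0, and 16 among all genes. Ccnd1, Fzd9, Notum and Sostdc1 were called in the full fit, after scaling and without any 1 library. The calls of Wnt7b, Tpbg, Lgr4, Myc, Tle1 and Ctnnb1 were each lost without any 1 of the 3 control 0 h libraries. Of the 12 fits that left out 1 library, Dvl1 was not called in 10, Sox9 and Tle2 in 8, Dvl3 and Nkd2 in 7, Tcf7l1 in 2 and Cd44 in 1. The values below are as deposited, and typical genes were also lower on that scale.

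Few Wnt ligands were detected. Of 19 ligand genes, 14 stayed below 1 TPM in every library, and Wnt4, Wnt7b, Wnt9a, Wnt10a and Wnt11 were tested. Wnt7b, which encodes a ligand of beta-catenin signalling in epithelia, was lower in KD at 0 h (log2 fold change −1.37, limma adjusted p = 0.0183; −0.92 after scaling). Notum, an extracellular enzyme that removes the lipid from Wnt proteins and so inactivates them, averaged 8.51 ± 3.83 TPM in KD and 25.7 ± 1.71 TPM in control at 0 h (SD, n = 3 each), and its log2 fold change was −1.58 (SE 0.296, limma adjusted p = 0.00733). Notum is thereby another secreted Wnt inhibitor that was lower in KD at 0 h.

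Of 12 receptors and co-receptors tested, 1 was lower in KD at 0 h, or 8.33% beside 14.6% of all genes. The Frizzled receptor gene Fzd9 had 7.56, 2.03 and 7.63 TPM in KD libraries at 0 h, against 17.00, 19.02 and 24.53 TPM in control libraries at 0 h (log2 fold change −1.79, SE 0.363, limma adjusted p = 0.0103). At 36 h it had 6.73, 6.58 and 7.64 TPM in KD libraries, against 22.55, 15.24 and 20.05 TPM in control libraries, without overlap but with a limma adjusted p of 0.0833. Among 5 membrane modulators tested, Tpbg, which encodes a Wnt-inhibitory membrane glycoprotein, was lower (log2 fold change −1.72, limma adjusted p = 0.0270; −1.32 after scaling). Lgr4, an R-spondin receptor related to Lgr6, was the gene of the lists that was higher, with 22.5 ± 5.69 TPM in KD and 11.5 ± 1.91 TPM in control at 0 h (SD, n = 3 each; log2 fold change 0.89, SE 0.235, limma adjusted p = 0.0269, or 1.39 after scaling). The R-spondin receptor genes Lgr6 and Lgr4 thus stood on opposite sides of control at 0 h.

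Inside the cell, 3 of 14 transducer genes (21.4%, beside 14.6% of all genes) were lower in KD at 0 h, namely Dvl1 and Dvl3, which relay the signal from Frizzled, and Ctnnb1, which encodes beta-catenin. Ctnnb1 averaged 344 ± 63.7 TPM in KD and 543 ± 15.2 TPM in control (SD, n = 3 each), with a log2 fold change of −0.67 (limma adjusted p = 0.0258) that was −0.15 after scaling and no longer called. Dvl1 had a log2 fold change of −1.36, or −0.87 after scaling. Dvl3 had −0.87, or −0.38 after scaling and no longer called (limma adjusted p = 0.335). On the scaled values 1 transducer gene was thus lower (7.14%, beside 10.2% of all genes). Of 9 TCF partner genes, Tcf7l1, a mostly repressing relative of Tcf7, and the co-repressor genes Tle1 and Tle2 were lower, with log2 fold changes of −0.94, −1.14 and −0.83. After scaling these were −0.46, −0.64 and −0.32, and of the 3 genes Tle1 alone was still called. The share of TCF partner genes called lower was 33.3% as deposited, beside 14.6% of all genes. After scaling it was 11.1%, close to the 10.2% of all genes.

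Of 10 other genes known as Wnt targets in some tissues, Nkd1 and Sp5 were at 0 in all 12 libraries, and Ascl2, Tnfrsf19 and Ccn4 stayed below 1 TPM, as Axin2 did. The 5 that were tested, Nkd2, Myc, Ccnd1, Cd44 and Sox9, were all lower in KD at 0 h by the limma test (100%, beside 14.6% of all genes). After scaling 3 of them, Nkd2, Myc and Ccnd1, were still called lower (60%, beside 10.2% of all genes). Cd44 then had a log2 fold change of −0.54 and Sox9 of −0.08. Ccnd1, which encodes cyclin D1, averaged 16.4 ± 3.68 TPM in KD and 51.2 ± 13.0 TPM in control at 0 h (SD, n = 3 each), with a log2 fold change of −1.58 (SE 0.227, limma adjusted p = 0.00239). Myc averaged 27.3 ± 17.1 TPM in KD and 82.4 ± 8.12 TPM in control at 0 h (SD, n = 3 each), with a log2 fold change of −1.83 (limma adjusted p = 0.0202). Each of these genes also responds to other pathways.

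**Figure D4:**
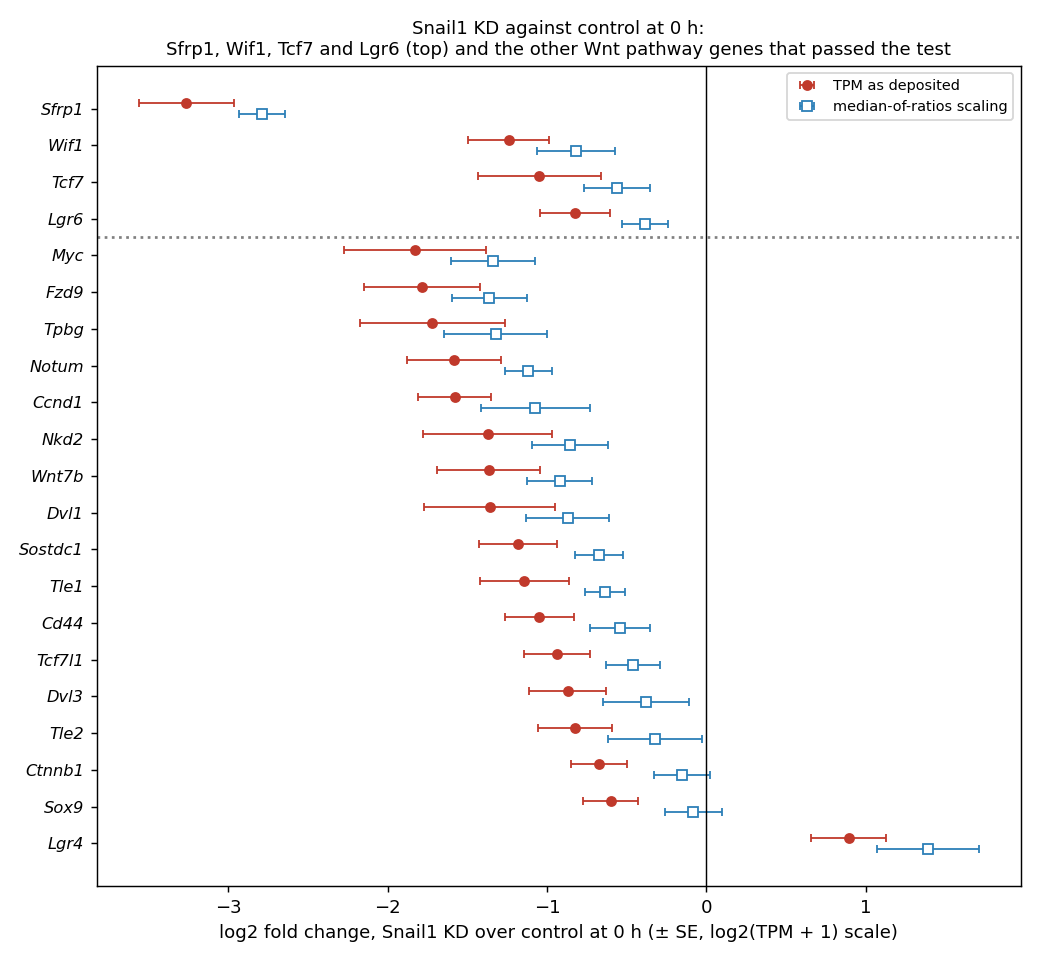
Log2 fold change of Snail1 KD over control at 0 h (x axis, log2(TPM + 1) scale, bars for SE) for the 4 detected genes of interest, given as description, and for the 17 other Wnt pathway genes called by limma (y axis), from TPM as deposited and after median-of-ratios scaling. Scaling moved every value to the right, and Lgr4 is the gene to the right of 0 on both scales.

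At 36 h none of the 55 genes passed the limma test between KD and control, while 13 (23.6%, beside 16.3% of all genes) had an unadjusted p under 0.05, and their median log2 fold change was −0.40 beside −0.09 for all genes. The count was 1 after scaling, a lower one, where 2.5% of all genes were called higher and 3.44% lower. It was 12 in a fit of the 6 libraries at 36 h alone, 19 without Snail1 KD 0 h library 2 and 2 without Snail1 KD 0 h library 3. Among all genes, these fits called 2176, 2699 and 552 in place of 365. Ccnd1 had the smallest adjusted p, 0.0571, with 27.59, 23.06 and 24.71 TPM in KD libraries, against 49.88, 51.16 and 45.30 TPM in control libraries. It was again without overlap between the constructs.

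Sostdc1, which encodes a secreted protein that binds BMP ligands and the LRP co-receptors of the Wnt pathway, was the most abundant secreted modulator and the single gene of the 55 called over time in either construct. It had 234.88, 275.62 and 221.25 TPM in Snail1 KD libraries at 36 h, against 60.11, 28.92 and 48.80 TPM in Snail1 KD libraries at 0 h. In control libraries it had 354.79, 302.02 and 300.51 TPM at 36 h, against 99.69, 93.70 and 110.79 TPM at 0 h. All 4 groups were separate, in the same order as for Lgr6. The log2 change was 2.44 in KD (SE 0.246, limma adjusted p = 5.49e-04), a ratio of means of 5.31. It was 1.64 in control (limma adjusted p = 0.0157), a ratio of 3.15. After scaling the log2 change was 2.04 in KD and 1.65 in control. The call in control was lost without any 1 of the 6 control libraries, with adjusted p-values of 0.0652 to 0.0984, and the call in KD was lost in a fit of the 6 KD libraries alone (adjusted p = 0.0909). The difference between the changes was 0.79 (limma adjusted p = 0.595), with none of the 55 genes called by limma and 2 (3.64%, beside 5.31% of all genes) at an unadjusted p under 0.05. At 0 h Sostdc1 was lower in KD than in control, with 45.9 ± 15.8 TPM in KD and 101 ± 8.67 TPM in control (SD, n = 3 each; log2 fold change −1.18, SE 0.246, limma adjusted p = 0.0112, or −0.67 after scaling).

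The genes most like Sfrp1 were found by the correlation of log2(TPM + 1) over all 12 libraries among 9370 genes whose mean level reached 5 TPM. They were D17H6S56E-5 (r = 0.993), Myadm (r = 0.983), Leprot (r = 0.983), Col8a1 (r = 0.981) and Mgam (r = 0.98). Col8a1, which encodes a collagen chain, averaged 2.54 ± 0.112 TPM in KD and 14.5 ± 3.14 TPM in control at 36 h, and 3.10 ± 0.325 TPM in KD and 17.9 ± 0.541 TPM in control at 0 h (SD, n = 3 each). The most opposite patterns were those of Mien1 (r = −0.961), Blvrb (r = −0.953), which encodes a biliverdin reductase, and Ndufb4c (r = −0.948). Mien1 averaged 406 ± 16.5 TPM in KD and 238 ± 25.2 TPM in control at 36 h, and 483 ± 43.3 TPM in KD and 219 ± 11.0 TPM in control at 0 h (SD, n = 3 each). Ndufb4c has near-identical relatives, so its level is uncertain. The 12 libraries share construct and time in groups of 3, so these correlations are a description.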

How the data were processed

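RNA-seq libraries were made from total RNA with a stranded mRNA kit, per the labels' protocols. The submitters' processing notes name cutadapt 1.9.1, HISAT2 2.2.1, HTSeq and build GRCm39, without parameters. The authors deposited TPM per gene, normalised within each library. No read counts were used, so depth is unknown and a count test was not possible. TPM is a share of a library, so a few abundant transcripts can shift all other genes. The authors' mean column for control at 36 h covers libraries 1 and 3, a further column repeats library 4 alone, and neither was used.

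Genes that reached 1 TPM in 3 or more of the 12 libraries (14426 of 57180) were tested on log2(TPM + 1) with limma 3.58.1 (R 4.3.3, trended variance), as 4 group means over 12 libraries. Tests were two-sided, with Benjamini-Hochberg adjustment over all genes tested and calls at adjusted p under 0.05. The pseudocount of 1 understates the change of low genes. The procedure was tested on simulated data.

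The 9 genes, the pathway lists and the marker lists were chosen with earlier results of these data known. Named genes were the 9, Snai1, called genes of the lists, and the 5 most like and 3 most opposite to Sfrp1; the same rule for Axin2 was not applied, because Axin2 did not pass the filter. Genes given at 36 h without a call, marker genes and the undetected genes of the lists were named after their values were seen. The alternatives were a pseudocount of 0.1 TPM, no filter, median-of-ratios scaling, a replicate block, the 6 compared libraries alone, and leaving out each library.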

Additional observations from a re-analysis of the deposited data

Results flagged for a closer look

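Wif1 was on opposite sides of control at the 2 times, in every library. It averaged 14.3 TPM in Snail1 KD and 8.23 TPM in control at 36 h, and 3.05 TPM in Snail1 KD and 8.50 TPM in control at 0 h. The difference between the changes was 1.93 on the log2 scale. It is given without a test, because Wif1 was chosen with both differences known, and the limma fit called none of the 14426 genes for this difference.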

How the results depend on the processing

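With TPM alone, the depth behind the genes below 1 TPM is unknown, and 3 libraries a group limit the power. Counts of genes called moved with most settings, and the cause was not tested. For KD minus control at 0 h (2550 genes, 17 of the other Wnt genes), no filter gave 1258 and 7, the replicate block 1011 and 7, the 6 libraries alone 16 and 0, and leaving out 1 library 755 to 5869 and 4 to 33; scaling gave 11 of the Wnt genes. For KD minus control at 36 h (365 and 0), no filter gave 192 genes, the replicate block 5, scaling 857 and 1, the 6 libraries alone 2176 and 12, and leaving out 1 library 24 to 2699 and 0 to 19. Over time in KD (162 and 1), the replicate block gave 40 genes, the 6 libraries alone 18 and 0, and leaving out 1 library 46 to 1572 and 1 to 5. Over time in control (52 and 1), scaling gave 88 genes, the replicate block 6 and 0, the 6 libraries alone 247, and leaving out 1 library 18 to 401 and 0 to 1. For the difference of the changes (0 genes), no filter, scaling and the replicate block each gave 1, and leaving out 1 library 0 to 10.

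Replicate numbers did not pair the samples: over 15 same-numbered pairs the correlation of deviations from group means was −0.287 to 0.132, and over 0.1 in 2. With the replicate block, the adjusted p over time in KD was 0.0539 for Wif1 and 0.0975 for Lgr6. Signs turned only for values near 0 that were not called, and in 1 correlation. The Tcf7 change over time in control was −0.0872 with the replicate block and −0.0685 to 0.313 with 1 library left out, below 0 without control 36 h library 1. The Wif1 change in control was −0.146 to 0.0658, above 0 without control 36 h library 1 or control 0 h library 1. The Sfrp1 change in KD was −0.513 to 0.0942, above 0 without Snail1 KD 0 h library 1 or 3. The Lgr6 difference of changes was −0.00216 after scaling. The correlation of Sfrp1 with Tcf7 in KD was −0.34 without 2 libraries.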
